A study of Mus musculus with 10 samples.

Results

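The STAT genes encode signal transducers and activators of transcription, a small family of cytokine-responsive transcription factors. The genes described are Stat2, Stat3, Stat4, Stat5a, Stat5b and Stat6, taken by symbol from a table of 22329 genes, and all 6 had a row. They were measured in subcutaneous tumours grown from 500000 cells of B16F10, a mouse melanoma line, in C57BL6/J mice. Of the 10 tumours, 5 had received 80 µg of luciferase mRNA (the control, libraries 1 to 5). The other 5 had received 80 µg of a mixture with 20 µg each of mRNAs for 4 mouse cytokines, which are interferon alpha, GM-CSF, a single-chain IL-12 and IL-15sushi, a fusion of IL-15 with a receptor fragment (libraries 6 to 10). All tumours were injected once and taken 7 days later, so both groups carried injected mRNA, and the labels give no age, sex or batch of the mice. Each library is a whole tumour, in which melanoma cells, host leukocytes and stroma are measured together. In such bulk samples more cells of a type and more RNA per cell cannot be told apart. The comparison asks which of these genes differed in mRNA level between cytokine mRNA and control tumours.

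STAT proteins wait in the cytoplasm until a cytokine receptor activates its Janus kinases, which phosphorylate a tyrosine near the end of the STAT protein. Phosphorylated STATs dimerize, enter the nucleus and bind DNA, and SOCS proteins, themselves products of STAT target genes, shut the signal off. Type I interferon acts through STAT2 bound to IRF9, IL-12 through STAT4, IL-15 and GM-CSF mainly through STAT5A and STAT5B, IL-6 and IL-10 through STAT3, and IL-4 and IL-13 through STAT6. The data are mRNA levels and hold nothing on STAT protein or its phosphorylation.

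Some STAT genes are themselves targets of interferon, through an element in their promoters called ISRE. Promoter windows of 250 bases before each annotated start were taken from RefSeq (GRCm38.p6), where all 6 genes were found, with 9 windows in all: 2 each for Stat4, Stat5a and Stat5b and 1 each for the others. These coordinates are RefSeq's, since the build of the authors' annotation was not settled. The 2 windows that held the ISRE letters (TTTC, any 2 bases, TTTC), searched on both strands, are shown because they belong to the 2 genes past the test below. Capitals mark the matches.

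Stat2, chr10:128270248-128270497, plus strand: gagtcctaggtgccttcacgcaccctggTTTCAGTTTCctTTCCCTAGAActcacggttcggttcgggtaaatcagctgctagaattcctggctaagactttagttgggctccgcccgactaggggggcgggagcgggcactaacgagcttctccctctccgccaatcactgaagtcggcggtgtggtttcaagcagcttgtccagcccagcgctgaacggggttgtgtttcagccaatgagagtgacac

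Stat4, the downstream start, chr1:52007990-52008239, plus strand: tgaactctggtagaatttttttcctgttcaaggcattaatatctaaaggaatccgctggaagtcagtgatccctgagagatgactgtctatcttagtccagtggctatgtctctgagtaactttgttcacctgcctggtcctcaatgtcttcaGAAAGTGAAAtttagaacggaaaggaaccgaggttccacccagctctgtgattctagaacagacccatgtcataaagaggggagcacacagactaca

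The Stat2 window held TTTCAGTTTC, which began 222 bases before the start. The same window held TTCCCTAGAA, a match to TTC, any 4 bases, GAA, a form of STAT site that STAT6 is known to bind; it began 210 bases before the start and did not overlap the ISRE match. The downstream Stat4 window held GAAAGTGAAA, the same element on the opposite strand, 97 bases before that start, and the upstream Stat4 window held none. Of all 32851 promoter windows of this length, 2.98% held an ISRE match, 5.85% held the form with 4 spacer bases and 7.02% held TTC, any 3 bases, GAA, the usual STAT site (GAS). None of the 9 STAT windows held the form with 3 spacer bases. A match is a run of letters and not a measured site, and these data do not show which start was used.

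The table keeps no sequencing depth. Between 11513 and 12984 genes reached 1 TPM per library, and mitochondrial genes took 16.2% to 27.9% of the TPM in control and 4.44% to 19.2% in cytokine mRNA libraries. Library 7 had the highest summed leukocyte markers and the lowest melanocyte markers of its group, and library 10 the lowest leukocyte markers, so results are given without them where that changes a value. P-values judge the difference between groups against the spread between tumours.

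Stat2 and Stat4 rose in the cytokine mRNA tumours, and the other 4 genes did not pass the test. Values are TPM, the share of each transcript in its library after correction for transcript length, scaled to a common total. They were compared with limma on log2(TPM + 1) across the 12497 genes that reached 1 TPM in 5 or more libraries, and a gene was called at a Benjamini-Hochberg adjusted p under 0.05. All 6 genes passed the filter on low values. The 2 called, both higher, stand beside 7.41% of all tested genes called higher, and 0 of the 6 were called lower, beside 3.02% (10.4% in either direction). The groups did not overlap in 4 genes (Stat2, Stat3, Stat4 and Stat6), all with the cytokine mRNA tumours above, beside 5.45% of tested genes; for all genes the share without overlap was 3.78% with the cytokine mRNA tumours below and 9.23% in either direction. The median change of the 6 genes was 0.68 on the log2 scale, and that of all tested genes was -0.18.

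**Figure D1:**
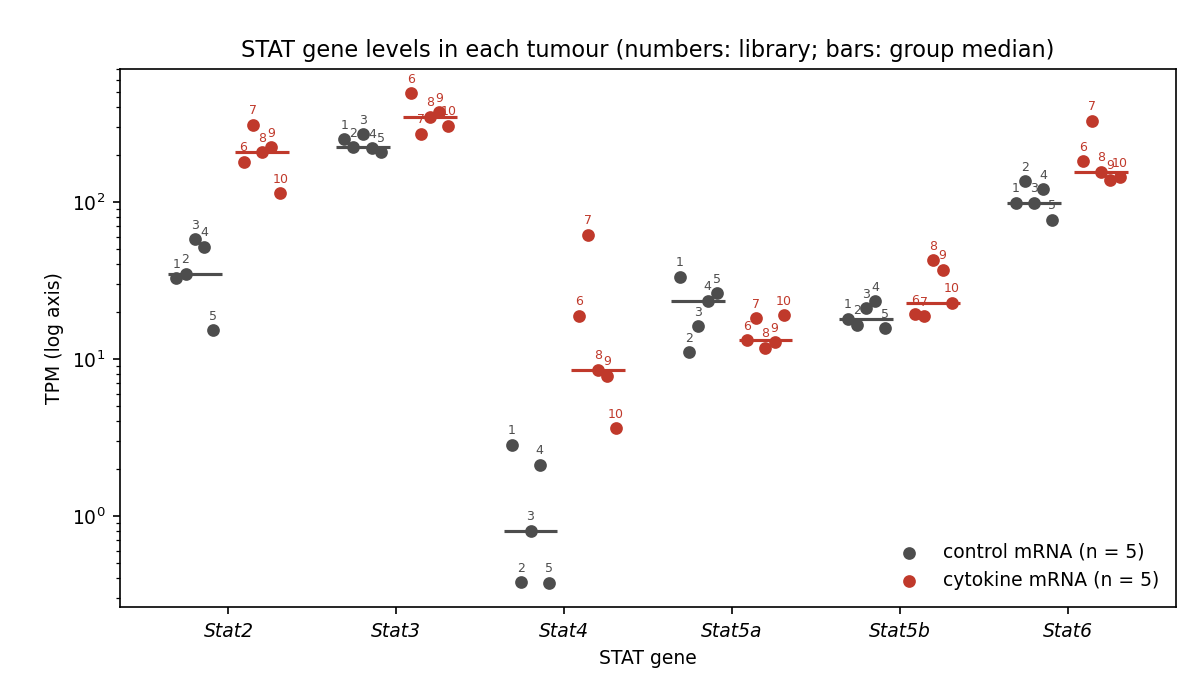
TPM of the 6 STAT genes in each of 10 tumours on a log axis, with 5 control mRNA tumours in grey, 5 cytokine mRNA tumours in red, library numbers beside the points and bars at the group medians. In Stat2 the cytokine mRNA tumours lie at 113 to 309 TPM, all above the control maximum of 57.7 TPM, while the groups overlap in Stat5a and Stat5b.

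Stat2 encodes the STAT that, together with IRF9, carries the type I interferon signal to interferon-stimulated genes. Its control values were 32.7, 34.9, 57.7, 51.8 and 15.3 TPM in libraries 1 to 5. Its cytokine mRNA values were 180, 309, 206, 223 and 113 TPM in libraries 6 to 10. Every cytokine mRNA tumour lay above every control tumour, and library 10 was the lowest of its group. The mean (± SD over 5 tumours) was 38.5 ± 16.8 TPM and rose 5.36-fold to 206 ± 71.3 TPM. The log2 change was 2.45 ± 0.37 (SE; limma adjusted p = 0.00961), ranking 424 from the top of 12497 genes. The call held with each single library left out (adjusted p of 0.000945 to 0.0363). Without libraries 6 and 7 together it was lost (limma adjusted p = 0.0628, log2 change 2.27). Over all alternatives the adjusted p ran from 0.000945 in limma to 0.0860, the latter from the exact permutation test described below.

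Stat4 encodes the STAT of IL-12 signalling and is expressed mainly in T cells, NK cells and some myeloid cells. It was the least abundant of the 6 genes in both groups by median. Its control values were 2.85, 0.380, 0.803, 2.12 and 0.376 TPM in libraries 1 to 5. Its cytokine mRNA values were 18.8, 61.6, 8.55, 7.79 and 3.61 TPM in libraries 6 to 10. The groups did not overlap, but library 10 lay close above control library 1, and library 7 stood far above the rest of its group. The mean (± SD over 5 tumours) was 1.31 ± 1.12 TPM and rose to 20.1 ± 23.9 TPM, and the cytokine mRNA mean was 9.69 TPM without library 7. The log2 change was 2.70 ± 0.63 (SE; limma adjusted p = 0.0243).

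The Stat4 call was less stable than its direction. Stat4 passed the filter only because of the cytokine mRNA libraries, and with no filter its adjusted p in limma was 0.0450. The call was lost without control library 2, 3 or 5 or cytokine library 6 (adjusted p of 0.0591, 0.0544, 0.0605 and 0.0679) and without libraries 6 and 7 together (0.0913, log2 change 1.79). Over all alternatives the adjusted p ran from 0.00326 to 0.0913. The size of its change depended on the pseudocount, and the log2 change was 3.55 with a pseudocount of 0.1 and 1.60 with 5.

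Stat3 encodes the STAT of IL-6 and IL-10 signalling and was the most abundant of the 6 genes in both groups by median. Its control values were 250, 222, 269, 219 and 206 TPM, and its cytokine mRNA values were 489, 271, 347, 372 and 305 TPM in library order. The groups did not overlap, although library 7 at 271 TPM lay just above control library 3 at 269 TPM. The log2 change was 0.59 ± 0.20 (SE; 95% interval 0.15 to 1.03), with a limma adjusted p of 0.0793, so it was not called. It was called after median-ratio scaling (0.0356), with library quality weights (0.00879) and without cytokine library 7 (0.0471) or 10 (0.0474), and over all alternatives the adjusted p ran from 0.00879 to 0.164.

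Stat6 encodes the STAT of IL-4 and IL-13 signalling. Its control values were 98.8, 135, 98.8, 120 and 76.9 TPM, and its cytokine mRNA values were 181, 328, 156, 139 and 143 TPM in library order. The cytokine mRNA tumours again lay above the controls, with library 9 at 139 TPM next to control library 2 at 135 TPM and library 7 well above its group. The log2 change was 0.77 ± 0.27 (SE; 95% interval 0.19 to 1.36; limma adjusted p = 0.0810), and it was not called. Without cytokine library 10 it was called (limma adjusted p = 0.0465; 0.0465 to 0.217 over all alternatives). The cytokine mRNA mean of 189 TPM was 154 TPM without library 7.

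Stat5a and Stat5b encode near-identical proteins that carry signals of IL-2, IL-15 and GM-CSF. Because the genes are close copies, reads could have been shared between them, and the way the authors' counting treated such reads is not given in the sources used here. Stat5a was at 33.3, 10.98, 16.2, 23.5 and 26.2 TPM in control and 13.2, 18.1, 11.8, 12.7 and 18.9 TPM in cytokine mRNA tumours. All 5 cytokine mRNA values lay below the control median of 23.5 TPM but inside the control range. Its log2 change was -0.46 ± 0.30 (SE; 95% interval -1.13 to 0.20; limma adjusted p = 0.306). Stat5b was at 18.0, 16.5, 21.0, 23.3 and 15.7 TPM in control and 19.2, 18.7, 42.6, 37.0 and 22.7 TPM in cytokine mRNA tumours. Only libraries 8 and 9 lay above the control maximum. Its log2 change was 0.48 ± 0.27 (SE; 95% interval -0.12 to 1.08; limma adjusted p = 0.246), and it was called in 1 of 22 alternatives, with library quality weights (adjusted p = 0.0333; 0.0333 to 0.434 over all alternatives).

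**Figure D2:**
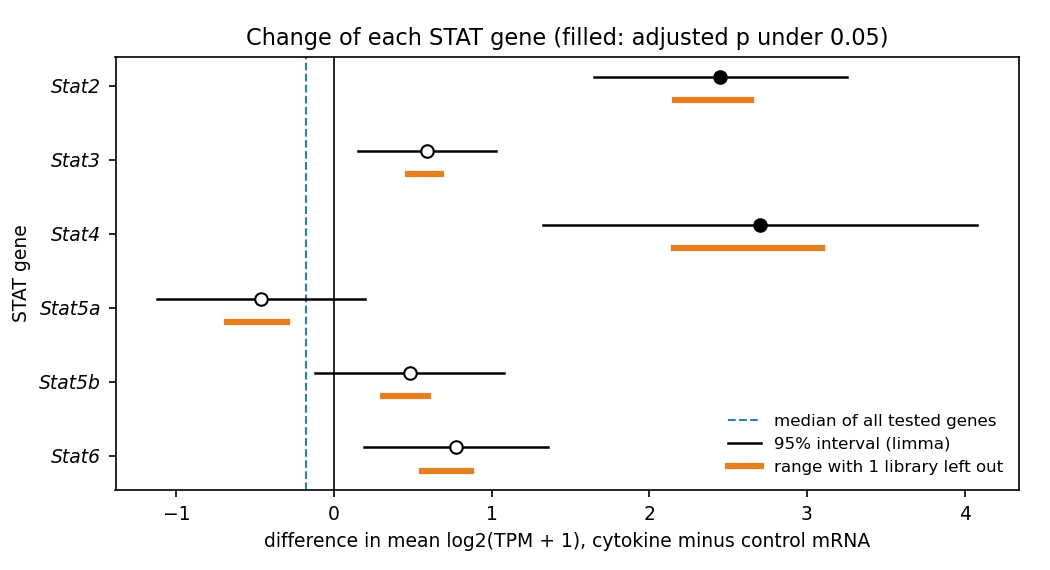
Difference in mean log2(TPM + 1) between 5 cytokine mRNA and 5 control mRNA tumours for each STAT gene, with limma 95% intervals (black) and the range of estimates when 1 library is left out (orange); filled points passed an adjusted p of 0.05 and the dashed line is the median of all tested genes, -0.18. Stat2 at 2.45 and Stat4 at 2.70 lie apart from the other 4 genes, which lie between -0.46 and 0.77.

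An exact permutation test on the same log2 values gave the smallest p that 5 against 5 tumours allow, 0.00794, 2-sided, for Stat2, Stat3, Stat4 and Stat6. Adjusted over all tested genes it was 0.0860 for each of them. No gene could reach a smaller adjusted value, so that test could call none whatever its change. That exact test called 0 of 12497 genes after adjustment, with 3785 (30.3%) at an unadjusted p under 0.05, against 1304 called by limma.

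By median, Stat2 stood below Stat6 in control and above it in cytokine mRNA tumours, and Stat5a and Stat5b also changed places. In full, the order in control tumours was Stat3 at 222 TPM, Stat6 at 98.8, Stat2 at 34.9, Stat5a at 23.5, Stat5b at 18.0 and Stat4 at 0.803 TPM. Among these neighbours, the ranges of Stat2 and Stat5a overlapped, as did those of Stat5a and Stat5b, and the other neighbours were apart. In cytokine mRNA tumours it was Stat3 at 347 TPM, Stat2 at 206, Stat6 at 156, Stat5b at 22.7, Stat5a at 13.2 and Stat4 at 8.55 TPM. There the ranges overlapped for all neighbours except Stat6 and Stat5b. Stat2 was above Stat6 in only 2 of the 5 cytokine mRNA tumours, so their changed order rests on the medians and is within their spread, and the ranges of Stat5a and Stat5b overlapped in both groups.

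The summed TPM of the 6 genes averaged 420 ± 47.0 over the control tumours and 815 ± 150.1 over the cytokine mRNA tumours (± SD, 5 each; 2-sided exact p = 0.00794). The range was 341 to 463 TPM in control and 606 to 1007 TPM in cytokine mRNA tumours, without overlap. Each gene's share of this sum does not move with the scaling of a library. Stat2 made up 8.91% ± 3.27 of the sum under control mRNA and 24.9% ± 5.29 under cytokine mRNA (± SD over 5 tumours; exact p adjusted over the 6 shares 0.0317), higher in 5 of 5 tumours than in any control. The share of Stat4 was 0.302% ± 0.252 and 2.18% ± 2.27 (adjusted p = 0.0317, exact). The share of Stat5a fell from 5.36% ± 2.33 to 1.90% ± 0.692 (adjusted p = 0.0317, exact). Because the sum rose, a gene that did not rise lost share. The TPM of Stat5a itself did not pass (limma adjusted p = 0.306). The 6 shares are parts of 1 sum, so their tests are not independent.

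The shares of the other genes did not pass the exact test. Stat3 made up 55.7% ± 4.33 of the sum under control mRNA and 44.7% ± 10.5 under cytokine mRNA (± SD over 5 tumours; exact adjusted p = 0.0595), and only 26.9% in library 7. Stat6 made up 25.2% ± 4.53 and 22.8% ± 5.88 (exact, adjusted p = 0.460), and Stat5b 4.50% ± 0.522 and 3.58% ± 1.58 (exact, adjusted p = 0.333). The share of Stat2 passed with each single library left out. The share of Stat4 was lost without any 1 of control libraries 1 to 5 (exact, adjusted p of 0.0952, 0.107, 0.131, 0.0833 and 0.143), and its difference of 1.88 percentage points was 0.89 without cytokine library 7. The share of Stat5a was lost without cytokine library 6, 7, 8 or 9 (0.0595, 0.0794, 0.0794 and 0.0794). Over all alternatives the adjusted p ran from 0.0238 to 0.107 for Stat2 and Stat5a and from 0.0238 to 0.143 for Stat4.

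**Figure D3:**
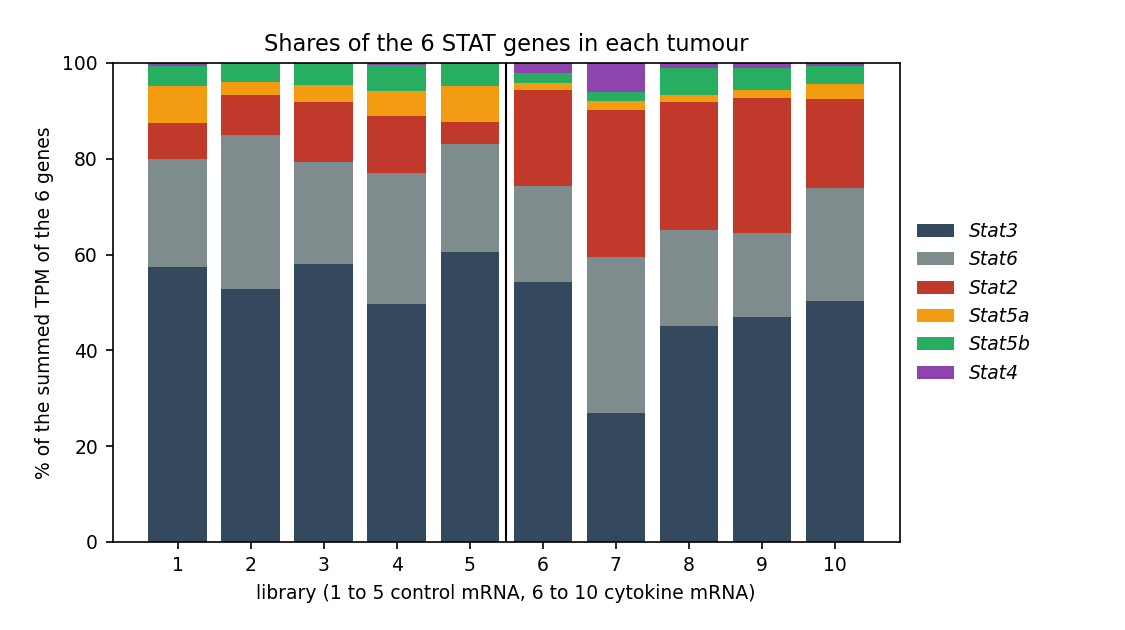
Share of each of the 6 genes in their summed TPM, in percent, per library, with control mRNA libraries 1 to 5 on the left of the line and cytokine mRNA libraries 6 to 10 on the right. The Stat2 share is 4.48% to 12.5% in control and 18.7% to 30.7% in cytokine mRNA tumours, and library 7 has the smallest Stat3 share, 26.9%.

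Ratios between 2 genes within a tumour test whether the genes changed unequally, and 15 pairs were compared by an exact 2-sided permutation test adjusted over the 15. In all, 9 pairs passed. Stat2 rose relative to Stat3 by 1.86 on the log2 scale, relative to Stat5a by 2.91, relative to Stat5b by 1.97 and relative to Stat6 by 1.68 (exact permutation, adjusted p = 0.0238 each). The groups did not overlap in these 4 ratios. The log2 ratio of Stat4 to Stat5a went from -3.36 ± 0.54 under control mRNA to -0.19 ± 1.42 under cytokine mRNA (± SD over 5 tumours; exact adjusted p = 0.0238), also without overlap. These 5 ratios passed with each single library left out.

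The other 4 passing ratios were less stable. Stat4 rose relative to Stat5b by 2.22 and relative to Stat6 by 1.93, Stat3 fell by 2.11 relative to Stat4 (exact, adjusted p = 0.0298 each), and Stat5a fell by 1.24 relative to Stat6 (exact, adjusted p = 0.0397). Each had overlapping groups and was lost in 4 to 8 of the 10 fits with 1 library left out. No difference between the changes of Stat2 and Stat4 passed this test: the difference in their log2 ratio was -0.25 (exact, adjusted p = 0.754), and the ratio spanned 3.13 to 5.03 in control and 2.31 to 4.67 in cytokine mRNA tumours. Stat5a to Stat5b had a log2 ratio of 0.13 ± 0.62 under control mRNA and -0.81 ± 0.76 under cytokine mRNA (± SD over 5 tumours; exact adjusted p = 0.130).

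Spread within a group differed between the genes. On the log2(TPM + 1) scale the SD over 5 tumours was 0.16 for Stat3 and 0.23 for Stat5b in control, against 0.73 for Stat2, 0.69 for Stat4 and 0.60 for Stat5a. In cytokine mRNA tumours it was 1.43 for Stat4 and 0.29 to 0.53 for the other 5 genes. Library 7 was the highest of its group for Stat2, Stat4 and Stat6 and the lowest for Stat3 and Stat5b. Library 10 was the lowest of its group for Stat2 and Stat4 and the highest for Stat5a. Control library 5 was the lowest of its group for all genes except Stat5a.

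Markers of most leukocyte types were higher in the cytokine mRNA tumours, as Stat2 and Stat4 were, but no B or plasma cell marker was called. The counts below stand beside 7.41% of all tested genes called higher by limma. Many of the markers, among them Cd3g, Cd8a, Prf1 and S100a8, passed the filter on low values only through the cytokine mRNA libraries. The counts alone are therefore no support for a rise, while the sums do not use that filter. Of 10 pan-leukocyte genes all 10 rose, with a summed level of 91.9 to 494 TPM in control and 620 to 5573 TPM in cytokine mRNA tumours. Of 15 tested T cell markers (of 19) 13 rose, with summed levels of 19.1 to 161 and 106 to 6152 TPM; Cd28 was at 0 in all controls. Of 10 tested NK and cytotoxic markers (of 13) 9 rose, with 1.39 to 28.4 and 63.1 to 2227 TPM and Klra8 at 0 in all controls. Of 16 macrophage and monocyte markers 13 rose, with 164 to 752 and 970 to 17276 TPM. Of 8 tested dendritic cell markers (of 10) 4 rose, with 4.78 to 23.0 and 23.9 to 129 TPM. Of 3 tested neutrophil markers (of 11) 2 rose, Csf3r and S100a8, with sums of 1.84 to 9.24 and 10.5 to 191 TPM. Csf3r, also in the Stat3 receptor list, averaged 5.32 TPM in control and 64.8 TPM in cytokine mRNA tumours. In all controls 6 of the 11 were at 0, and Ly6g and Cxcr2 averaged 0.658 and 0.221 TPM in cytokine mRNA tumours. None of 4 tested B and plasma cell markers (of 10) was called, and their sums overlapped, at 56.6 to 155 and 90.1 to 349 TPM. None of 10 fibroblast or 8 endothelial markers was called. None of 12 melanocyte markers was called, with summed levels of 4771 to 28393 TPM in control and 1478 to 32141 TPM in cytokine mRNA tumours, the lowest in library 7. Their median log2 change was -1.86, against -0.18 for all tested genes, and only 1 of the 12, Gpnmb, had a positive change (0.28). In library 7 Gpnmb made up 1435 of the 1478 TPM, while Tyrp1 was at 3.16, Mlana at 4.79 and Pmel at 1.22 TPM. The leukocyte summed level was 2212, 5573, 2447, 1857 and 620 TPM in cytokine mRNA libraries 6 to 10. Stat2 and Stat4 were also highest in library 7 and lowest of their group in library 10. Between these, Stat2 was higher in library 9 (223 TPM) than in library 6 (180 TPM), where the leukocyte sum was the larger. Stat6 was highest in library 7 and lowest of its group in library 9. Stat3 and Stat5b were lowest of their group in library 7, and Stat5a was highest of its group in library 10. In library 10 the T cell sum of 106 TPM lay inside its control range, as did the B and plasma cell sum of 90.1 TPM. The NK and cytotoxic sum of 63.1 TPM, the macrophage sum of 970 TPM and the leukocyte sum of 620 TPM lay above every control. Stat4 in library 10, at 3.61 TPM, also lay above its control range. The part of these cell types in the STAT differences was not tested.

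**Figure D4:**
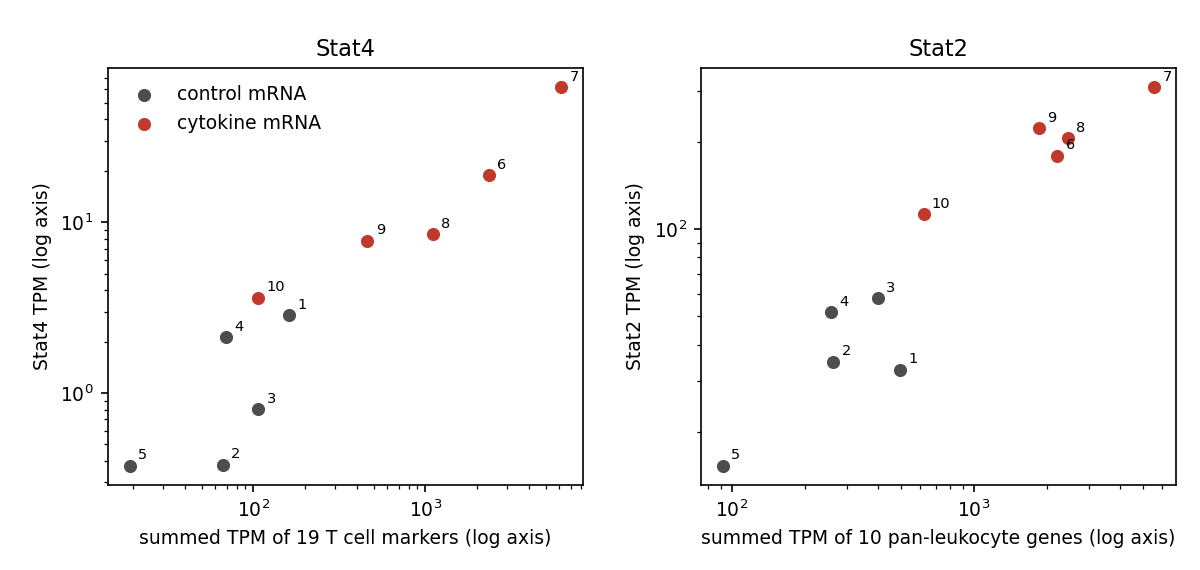
Stat4 TPM against the summed TPM of 19 T cell markers (left) and Stat2 TPM against the summed TPM of 10 pan-leukocyte genes (right), both on log axes, 1 point per tumour with its library number. Library 7 is highest on all axes, at 61.6 TPM of Stat4 and 309 TPM of Stat2, and library 10 lies next to the controls in the left panel.

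Genes upstream of the STATs were compared in the same limma fit, as lists of receptors placed with each STAT, with changes on the log2(TPM + 1) scale. In that fit 7.41% of all tested genes were called higher, the share to read beside each count. The list placed with Stat4 joins IL-12 receptor genes, whose product signals through STAT4, and the IL-18 receptor genes Il18r1 and Il18rap, which are STAT4 targets but signal through MyD88. All 4 tested genes of it rose. Il12rb1, Il12rb2, Il18r1 and Il18rap had control medians of 0.208, 0.373, 0.606 and 1.41 TPM, and each had a control tumour under 1 TPM. They passed the filter on low values only through the cytokine mRNA libraries, so their count and median are no support for a change of the list. With 1 library left out 1 to 4 of them were called (1 without control library 5 or cytokine library 6 or 8), and with a filter at a TPM of 5 the list had 0 calls. Il12rb2, the IL-12 receptor subunit that docks STAT4, averaged 0.418 ± 0.304 TPM under control mRNA and rose to 28.8 ± 33.7 TPM, or 14.9 TPM with library 7 left out, and Il18rap, an IL-18 receptor subunit, rose by 3.46 ± 0.70 (SE). Of 12 tested receptor genes grouped with Stat5a and Stat5b, 9 rose and none was called lower, with a median change of 3.02 against -0.18 for all tested genes. The count fell to 4 without cytokine library 6 and to 6 without control library 4 or 5 or cytokine library 8. Epor, the erythropoietin receptor, named after its values were seen, lay below every control in all 5 cytokine mRNA tumours without passing (log2 change -1.26, limma adjusted p = 0.0574). Il7r, the IL-7 receptor, rose by 4.27 ± 0.68 and Il2ra, the high-affinity IL-2 receptor subunit, by 3.77 ± 0.75 (SE), both from control medians under 1 TPM (0.883 and 0.492). Il7r, Il2ra, Il2rb, Csf2rb and Csf2rb2 passed the filter on low values only through the cytokine mRNA libraries, so the count and median of this list rest in part on them.

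Of 3 tested receptor genes grouped with Stat2, only Ifnar2, a chain of the type I interferon receptor, rose, with 84.4 ± 20.2 TPM under control mRNA and 261 ± 161 TPM under cytokine mRNA (± SD; limma adjusted p = 0.0454). That call held in 1 of the 10 fits with a library left out. Of 11 receptor genes grouped with Stat3, 6 rose, beside 7.41% of all tested genes, and none was called lower, with a median change of 1.31. That count was 0 without cytokine library 6 or 8, 1 without control library 4, 2 without control library 2 or 5, 3 without cytokine library 7 or 9, and 4 to 7 with any other library left out. Il21r, the IL-21 receptor, rose by 3.22 ± 0.69 and Csf3r, the G-CSF receptor, by 3.20 ± 0.75 (SE), and the Csf3r call held in 5 of the 10 such fits. Il6ra, Il10ra, Csf3r, Il21r and Il27ra passed the filter on low values only through the cytokine mRNA libraries, so the count and median of this list rest in part on them. All 3 tested receptor genes grouped with Stat6 rose, but only 1 was called in 8 of the 10 fits with a library left out and 2 without control library 1. Il2rg, the common gamma chain that other lists share, rose by 3.11 ± 0.57 and Il4ra, the IL-4 receptor, by 2.24 ± 0.62 (SE), the latter a call that held in 1 of the 10 fits with a library left out.

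None of the 4 Janus kinase genes passed, in either direction, with a median change of 0.71. Jak1, which serves interferon and gamma-chain receptors, was at 62.0 ± 9.33 TPM under control mRNA and 146 ± 72.4 TPM under cytokine mRNA (± SD; limma adjusted p = 0.0711). None of 4 partner and co-activator genes passed (Irf9, Crebbp, Ep300 and Nmi), and Ep300, an acetyltransferase co-activator, had a log2 change of -0.22 ± 0.21 (SE). Of 19 inhibitors, 3 rose, beside 7.41% of all tested genes, and none was called lower, with a median change of 0.20. The count ran from 2 to 7 with 1 library left out (7 without cytokine library 10), was 5 after median-ratio or quantile scaling and was 8 with quality weights. The 3 were Ptprc, the CD45 phosphatase that also marks leukocytes, at 3.54 ± 0.67, Usp18, an interferon-induced brake on the interferon receptor, at 2.43 ± 0.40, and Socs1, a feedback inhibitor of Janus kinases, at 2.06 ± 0.54 (SE). The Socs1 call held in 3 of the 10 fits with a library left out.

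Downstream genes were listed by the STAT they are textbook targets of, although many respond to other factors too. Each count stands beside 7.41% of all tested genes called higher. Of 15 Stat2 targets 13 rose, with a median change of 2.26; Ifi44 and Oasl1, both interferon-stimulated, rose by 3.34 ± 0.50 and 3.04 ± 0.56 (SE). With 1 library left out 12 or 13 of the Stat2 targets were called. Of 8 tested Stat4 targets 7 rose, or 4 to 7 with 1 library left out (4 without cytokine library 6 or 8), with a median of 3.45. Ifng, the interferon gamma gene, rose by 4.06 ± 0.66 and Gzmb, a granzyme of killer cells, by 3.95 ± 0.47 (SE). Ifng, Gzmb, Prf1, Il12rb2, Il18r1 and Il18rap each had a control tumour under 1 TPM. They passed the filter on low values only through the cytokine mRNA libraries, so this count and median are no support for a change of the list. The IL-12 and IL-18 receptor list and the Stat4 target list share Il12rb2, Il18r1 and Il18rap.

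Of 17 Stat3 targets 7 rose, with a median of 1.05, but 3 to 5 were called in the fits without 1 library other than library 10, and 12 without library 10. Il1rn, the IL-1 receptor antagonist, rose by 3.52 ± 0.50 and Saa3, an acute-phase protein, by 3.01 ± 0.75 (SE), with a Saa3 call that held in 1 of the 10 fits with a library left out. Of 13 tested Stat5 targets 5 rose, with a median of 0.79, among them Il2ra and Socs1, or 3 to 7 with 1 library left out (3 without control library 4 or 5 or cytokine library 8). Of 14 tested Stat6 targets 5 rose, with a median of 1.81, or 3 or 4 without 1 library other than library 10 and 8 without library 10. Pdcd1lg2, a ligand of PD-1, rose by 3.68 ± 0.56 (SE) from a control maximum of 0.564 TPM, and passed the filter only through the cytokine mRNA libraries. Arg1, an arginase of macrophages, rose by 3.52 ± 0.70 (SE). No gene of any receptor, kinase, inhibitor or target list was called lower. Of all 109 tested genes in these lists together 51 rose, beside 7.41% of all tested genes. That count was 29 and 31 without cytokine libraries 6 and 8, and 2 without libraries 6 and 7 together. The lists were chosen with earlier results of these data known. Many of the called genes, among them Il7r, Il2ra, Il18rap, Ifng and Prf1, passed the filter on low values only through the cytokine mRNA libraries. The excess over 7.41% is therefore no support for a change of these lists as a set.

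**Figure D5:**
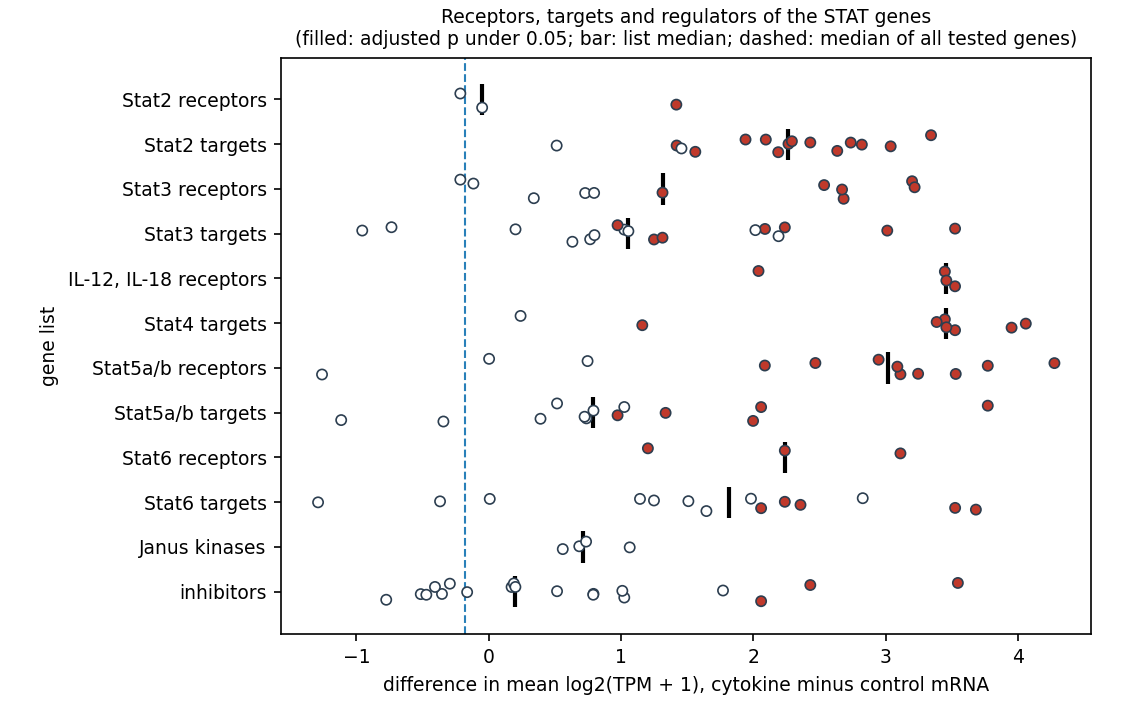
Log2 change of each tested receptor, target and regulator gene (points; filled where the adjusted p was under 0.05), with list medians as bars and the median of all tested genes, -0.18, as a dashed line. The lists of IL-12 and IL-18 receptors and of Stat4 targets, which share 3 genes, have medians of 3.45, and none of the 4 Janus kinase genes passed.

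The genes most like each STAT gene were found by the root mean square difference of log2(TPM + 1) over the 10 tumours, each gene centred on its own mean, among 12049 tested genes. The difference between groups counts in this measure, so the nearest genes changed much as their STAT gene did by choice. Closest to Stat2 were Ebi3, a subunit of IL-27 and IL-35, at 0.21, the interferon-stimulated gene Ifit1 at 0.22 and Napsa at 0.26, while Stat2 itself deviated from its mean by 1.35. Closest to Stat4, which deviated by 1.68, were Gpr18 at 0.29, the lymphocyte receptor Cd96 at 0.38 and Shisa5 at 0.41. Gpr18 rose from 0.279 to 12.2 TPM in group means and Cd96 from 0.414 to 12.3 TPM.

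The genes nearest to the other 4 varied less and did not pass the limma test, which follows from that choice and is no separate result. Closest to Stat3 were Tanc2, Rbm43 and Ankfy1 (0.13 to 0.15), and closest to Stat6 were Crlf3, Mbd2 and Atp1b3 (0.17 to 0.18). Closest to Stat5b were Gpsm3, Copz2 and Syngr2 (0.17 to 0.21), and closest to Stat5a were Mrpl4, Prkar2a and Plxnd1 (0.24 to 0.28). Stat5a itself deviated from its mean by 0.48 and Stat6 by 0.54.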

How the data were processed

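The authors deposited 1 table of TPM, with a row per gene symbol and a column per tumour, each column summing to the same total. STAR is named as aligner per the submitters' processing notes, without a version, and GRCh38, a human build, as genome, while the table holds mouse symbols. Per the labels' protocols, polyA RNA and stranded libraries were used; the annotation, counter and TPM program were not given in the sources used here. Since TPM hides depth, depth is unknown and no counting intervals are given. Libraries were grouped by title, 5 per group, and taken as separate tumours.

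From this table, log2(TPM + 1) was fitted in limma 3.58.1 (R 4.3.3; eBayes with trend, 2-sided) over the 12497 genes that reached 1 TPM in 5 or more libraries. Benjamini-Hochberg adjustment ran over all of them. The step was tested on simulated data. Shares and ratios used exact permutation tests. Alternatives were pseudocounts of 0.1 and 5, no filter or one at a TPM of 5, median-ratio and quantile scaling, and rescaling without the 50 most abundant genes or without mitochondrial and receptor segment genes. Further ones were no trend, quality weights, the exact test and libraries left out.

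Named were the 6 genes, in each pathway list the called genes of largest change, at most 2, or failing any the gene of highest mean, and the 3 genes nearest to each STAT gene. The 6 genes, the lists and the rule were chosen with earlier results of these data known. Another gene of the family is not reported here.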

Additional observations from a re-analysis of the deposited data

Results flagged for a closer look

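The highest or lowest value of a group of 5 was checked against the rest of its group by Dixon's ratio in 98 groups, and 13 stood apart; chance flags about 1 in 20 groups. Library 7 was far above its group for Stat4, at 61.6 TPM and 6.12% of the STAT sum, and for Stat6, at 328 TPM. It was also the highest for the receptor gene Il21r, at 171 TPM, and the interferon-stimulated gene Oasl1, at 211 TPM, and its log2 ratio of Stat3 to Stat6, -0.27, was far below its group.

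Library 10 stood apart in its Stat5a share, 3.12%, the highest of its group, in its log2 ratio of Stat2 to Stat5a, 2.52, the lowest, and in Saa3, the lowest at 10.5 TPM. Among control tumours, the highest Il2ra value, 2.32 TPM, stood apart. So did the lowest log2 ratios of Stat3 to Stat5b, 3.18, of Stat4 to Stat5a, -4.31, and of Stat5b to Stat6, -2.96.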

How the results depend on the processing

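All 6 STAT genes kept the sign of their change in every alternative run. Median-ratio scaling moved the median change of all tested genes from -0.18 to -0.03, and rescaling without the 50 most abundant genes or without mitochondrial and receptor segment genes moved it to -0.28 and -0.32. The exact permutation test called 0 STAT genes, 0 pathway genes and 0 genes in all (3785 at an unadjusted p under 0.05), at changes of 2.45 for Stat2 and 2.70 for Stat4. Its smallest p of 0.00794 became 0.0860 after adjustment, so it could call no gene here. Without libraries 6 and 7 together, limma called 0 STAT genes, 2 pathway genes and 20 genes in all, with changes of 2.27 for Stat2 and 1.79 for Stat4. With library quality weights 4 STAT genes and 2769 genes in all were called, with Stat3 at 0.66 and Stat5b at 0.77; Stat3 was also called after median-ratio scaling, at 0.76. A filter at a TPM of 5 left out Stat4, with 1 STAT gene called, and no filter gave 846 called genes in all against 1304.

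With 1 library left out, 1 to 4 STAT genes, 29 to 66 pathway genes and 367 to 3238 genes in all were called. The log2 changes then ran from 0.47 to 0.68 for Stat3, 2.15 to 3.09 for Stat4 and 0.56 to 0.87 for Stat6. The share differences, in percentage points, ran from -13.4 to -6.54 for Stat3, 0.89 to 2.27 for Stat4 and -4.14 to -2.87 for Stat5a. The log2 ratio differences ran from -2.46 to -1.47 for Stat3 to Stat4, 1.56 to 2.56 for Stat4 to Stat5b, 1.60 to 2.24 for Stat4 to Stat6 and -1.54 to -1.05 for Stat5a to Stat6. Those without a call changed sign in places, from -0.49 to 0.13 for Stat2 to Stat4, -0.12 to 0.28 for Stat3 to Stat5b, -0.30 to 0.12 for Stat3 to Stat6 and -0.51 to 0.042 for Stat5b to Stat6.

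Without libraries 6 and 7 together, with 3 tumours in the cytokine mRNA group, no share or ratio passed after adjustment. The exact test has fewer splits with so few tumours, so its smallest p is larger. A call lost there does not by itself show a smaller difference. The exact adjusted p was then 0.107 for the Stat2 share and 0.0536 for the ratios of Stat2 to Stat3, Stat5a, Stat5b and Stat6. Shares then differed by 15.6 points for Stat2, 0.59 for Stat4 and -3.28 for Stat5a, and that of Stat5b turned to 0.15. Ratios of Stat2 to Stat3, Stat5a, Stat5b and Stat6 differed by 1.72, 2.78, 1.49 and 1.79, that of Stat3 to Stat4 by -1.24, and those of Stat4 to Stat5a, Stat5b and Stat6 by 2.30, 1.01 and 1.31. Stat5a to Stat6 differed by -0.99, and the sign turned for Stat2 to Stat4 (0.48), Stat3 to Stat5b (-0.24), Stat3 to Stat6 (0.071) and Stat5b to Stat6 (0.31). With a pseudocount of 5, the calls of Stat3 to Stat4 (-1.01), Stat4 to Stat5b (1.18), Stat4 to Stat6 (0.84) and Stat5a to Stat6 (-1.14) were lost and Stat2 to Stat4 turned to 0.72. The cause of these changes was not tested. No paired analysis was possible because the groups share no replicate numbers. Depth is unknown, which limits what the low Stat4 values can show.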

Other observations

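Irf9, the DNA-binding partner of Stat2, did not pass the test although Stat2 did; it was singled out after its values were seen. Irf9 was at 21.8, 23.3, 29.8, 40.6 and 12.05 TPM in control libraries 1 to 5 and at 23.5, 29.3, 37.9, 42.9 and 42.2 TPM in cytokine mRNA libraries 6 to 10. The groups overlapped, and the limma adjusted p was 0.274 for a log2 change of 0.51 ± 0.31 (SE). The log2 ratio of Stat2 to Irf9 averaged 0.54 ± 0.25 under control mRNA and 2.48 ± 0.73 under cytokine mRNA (± SD over 5 tumours), without overlap. The difference of 1.94 had an exact permutation p of 0.00794, 2-sided, the smallest that 5 against 5 tumours allow, and it ran from 1.72 to 2.21 with 1 library left out. This comparison was added after seeing the data.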
